A study of Homo sapiens with 18 samples.

Results

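The replication-dependent histone genes encode the proteins that package newly made DNA: the core histones H2A, H2B, H3 and H4, and the linker histone H1. Gene symbols of the forms H1-1 to H1-5, H2AC, H2BC, H3C and H4C with a number selected 58 of the 17017 genes in the deposited table. They comprised 5 H1, 14 H2A, 17 H2B, 10 H3 and 12 H4 genes, and no measured value entered the choice. Counts came from MDA-MB-231, an established human cell line of breast carcinoma, in which fibrillarin had been knocked down. Fibrillarin, gene symbol FBL, is an enzyme that methylates ribosomal RNA at sites chosen by small nucleolar guide RNAs. Cells carried lentiviral hairpins and were selected with puromycin: SC, read here as the scramble control, or SH2 or SH3, read as the 2 hairpins against FBL. The protocols name the hairpins knockdown 1 and 2, and the labels do not tie these names to SH2 and SH3. All groups were treated with cycloheximide, which halts elongating ribosomes, before lysis, and each lysate gave cytoplasmic input RNA and ribosome footprints. Each of the 6 groups held 3 libraries, 18 in all. Every group is the same single cell line, and nothing in the labels says that the replicates were separate transductions or cultures, so p-values measure the spread between these libraries.

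Most vertebrate mRNAs end in a poly(A) tail, but replication-dependent histone mRNAs end in a conserved stem-loop. The stem-loop binding protein SLBP holds this structure and takes part in processing, translation and decay of the message. The genes lie in clusters, are transcribed in S phase under the coactivator NPAT, and supply the histones of newly built nucleosomes. Their messages are lost quickly when DNA synthesis stops. Near-identical copies make counts of single genes uncertain, because the treatment of reads that match several copies is not given in the sources used here. Neither the strand setting of the counting nor any selection of RNA by its tail is given in those sources.

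FBL was read first as the check of the labels. Its RNA was 388 ± 36.4 CPM (counts scaled to a common library size by the trimmed mean of M-values, TMM; SD, n = 3) in SC, 5.67 ± 5.09 in SH2 and 3.49 ± 0.612 in SH3. Total counts ranged from 23469830 to 27629488 in RNA libraries and from 1662705 to 6098648 in footprint libraries, so footprint values of low genes are the less precise. The MDA-MB-231 markers VIM and CD44 averaged 5579 and 316 CPM in SC RNA, and the luminal markers ESR1 and PGR had at most 2 counts in any RNA library and CDH1 at most 11. Of the other markers listed as low, ERBB2 was at 95.3, GATA3 at 8.03 and EPCAM at 5.66 CPM in SC, and SPARC, listed as high, was at 0.58 CPM. The SC libraries stood apart from each other in histone content. SC replicate 1 had the lowest histone share of RNA counts (0.688%, against 1.12% and 1.06%) and the highest histone share of footprint counts (1.65%, against 0.831% and 1.34%), while SC replicate 2 had the highest RNA share and the lowest footprint share.

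The promoters of the classes differ in sequence, and RefSeq promoters (GRCh38.p14) matched 53 of the 58 genes. The search covered 4 short motifs on both strands, from 250 bases before to 50 bases after the start. The first was the TATA box core and the second the CCAAT box, general elements of many promoters. The others were the core of the octamer element, known from H2B promoters, and the core of the H4 promoter element that HINFP binds. No motif is contained in another. The TATA core, TATAAA, was found in 37 of 53 histone promoters and in 11.95% of all 27305 promoters. CCAAT was in every matched H1, H2A, H2B and H3 promoter, in 3 of 10 H4 promoters and in 35.7% of all promoters. The octamer core, ATTTGCA, was in 14 of 17 H2B and 11 of 13 H2A promoters, in 1 of 8 H3 promoters and in 0 of 5 H1 and 0 of 10 H4 promoters, against 4.23% overall. The HINFP core, GGTCCG, was in 9 of 10 H4 promoters and in 1 each of the H2A, H2B and H3 promoters, against 11.2% overall. Where an H2A and an H2B gene start back to back, their searched windows can overlap, so 1 site can count in both classes. The H2A and the H2B promoter with the HINFP core were those of such neighbours, H2AC20 and H2BC21. These are letter matches, not binding sites.

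The 150 bases before the start are printed for 6 genes that the results below turn on: the 2 most abundant H4 genes, a divergent H2A and H2B pair, an abundant H3 gene with one of the largest decreases, and the most abundant H2A gene. Capitals mark matches to the 4 motifs on either strand, and adjoining matches run together.
H4C2 (chr6:26027284-26027433, minus strand): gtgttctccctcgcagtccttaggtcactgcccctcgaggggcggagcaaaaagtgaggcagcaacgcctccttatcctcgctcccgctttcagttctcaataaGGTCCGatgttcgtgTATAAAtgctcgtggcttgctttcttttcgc
H4C8 (chr6:26285535-26285684, minus strand): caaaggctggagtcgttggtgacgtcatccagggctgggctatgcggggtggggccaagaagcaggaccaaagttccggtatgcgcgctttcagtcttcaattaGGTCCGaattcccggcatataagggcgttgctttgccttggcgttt
H2AC11 (chr6:27132893-27133042, plus strand): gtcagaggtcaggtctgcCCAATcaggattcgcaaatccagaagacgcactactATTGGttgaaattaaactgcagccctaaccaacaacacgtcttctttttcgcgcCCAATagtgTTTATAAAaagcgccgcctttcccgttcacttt
H2BC11 (chr6:27132796-27132945, minus strand): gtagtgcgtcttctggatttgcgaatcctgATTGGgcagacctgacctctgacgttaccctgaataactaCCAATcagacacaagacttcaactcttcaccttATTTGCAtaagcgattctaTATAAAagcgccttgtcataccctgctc
H3C3 (chr6:26045234-26045383, plus strand): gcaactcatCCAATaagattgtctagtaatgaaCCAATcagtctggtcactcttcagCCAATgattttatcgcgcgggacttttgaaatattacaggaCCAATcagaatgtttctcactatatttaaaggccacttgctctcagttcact
H2AC6 (chr6:26124022-26124171, plus strand): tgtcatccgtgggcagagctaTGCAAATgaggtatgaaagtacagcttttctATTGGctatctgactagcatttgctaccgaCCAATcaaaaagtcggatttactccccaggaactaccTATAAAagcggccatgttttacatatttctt
Both H4 sequences carry GGTCCG and no CCAAT, and H4C8 also lacks TATAAA in this stretch. In this stretch H3C3 has 4 CCAAT matches and none of the other 3 motifs, and its octamer core lies outside it, elsewhere in the searched window. H2AC11 and H2BC11 are read in opposite directions from overlapping windows, so part of each is the other in reverse complement. H2AC6 holds an octamer core in reverse orientation.

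Most histone genes had less RNA under each hairpin, and the classes differed in how much was left. Of the 38 genes with enough RNA counts to test, 33 fell in SH2 and 0 rose, against 30.4% lower and 31.1% higher among all 12710 genes tested. In SH3, 34 fell and 0 rose, against 25.2% and 27.8% of all genes (edgeR's quasi-likelihood test, adjusted p under 0.05 over all genes). The median log2 change of the tested histone genes was -1.25 in SH2 and -1.38 in SH3, beside 0.01 and 0.03 for all genes. A gene enters the test when 3 libraries have enough counts, so a gene high in SC alone can enter, and the 20 untested genes are described further on. Both hairpins were set against 1 group of SC libraries, so the likeness of SH2 and SH3 is no independent replication. In RNA, 31 genes fell in both comparisons. H2AC20 and H4C12 passed in the SH2 comparison and not in the SH3 one, H2AC1, H4C2 and H4C8 passed in the SH3 comparison and not in the SH2 one, and H2AC6 and H4C11 passed in neither. Of these, H2AC1 and H4C2 also differed between SH2 and SH3 when that difference was tested, and the others did not pass.

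Summed over its genes, H3 RNA was 1580, 2397 and 2398 CPM in SC, 599.9, 691 and 936 CPM in SH2, and 648, 733 and 775 CPM in SH3. That left 34.9% of the SC mean in SH2 and 33.8% in SH3, and neither hairpin overlapped SC. H4 RNA was 1308, 2005 and 1988 CPM in SC, 1227, 1316 and 1661 CPM in SH2, and 904, 1222 and 1142 CPM in SH3. H4 in SH2 stood at 79.3% of SC and overlapped it, while SH3 stood at 61.7% and lay below every SC library. H2B RNA stood at 37.4% in SH2 and 44.7% in SH3, H2A at 47.8% and 49.6%, and H1 at 61.8% and 63.3%, each without overlap. No test was run on class sums.

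**Figure D1:**
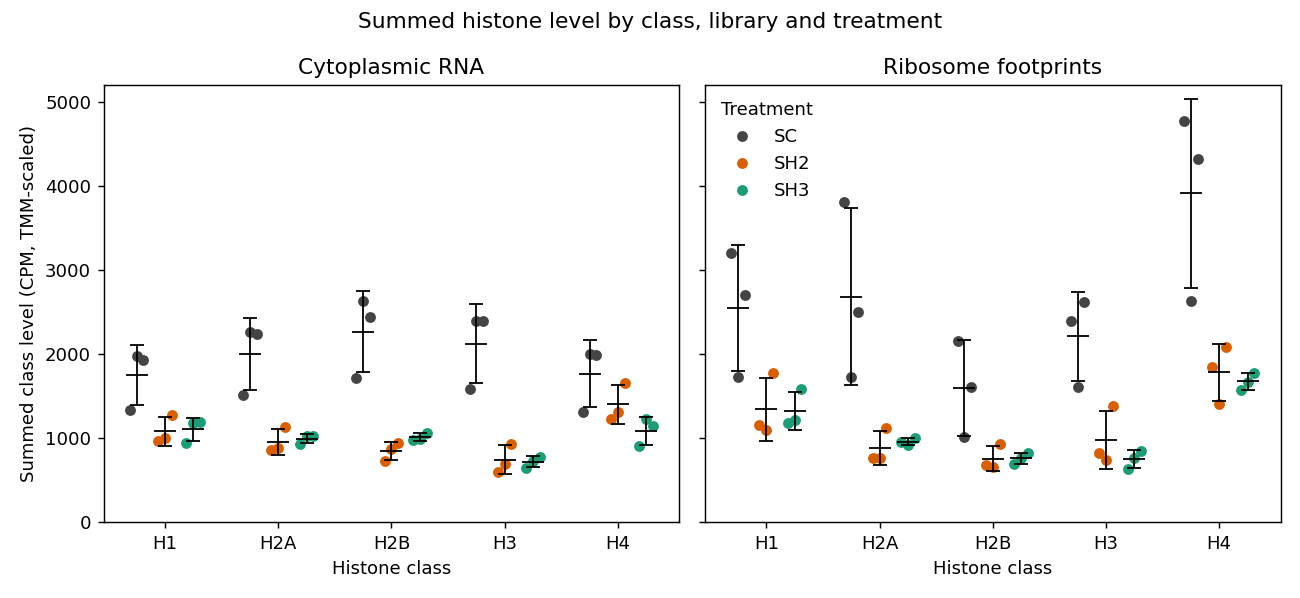
Each point is 1 library and each black mark a group mean with its SD (n = 3); the vertical axis is the summed level of a class in TMM-scaled CPM, for RNA on the left and footprints on the right. H3 and H2B show the widest gaps between SC and hairpin libraries in RNA, H4 RNA in SH2 overlaps SC, and the SC footprint libraries spread widely in every class.

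The balance between classes does not depend on library scaling and was tight among the SC libraries. The ratio of H4 to H3 RNA counts was 0.828, 0.836 and 0.829 in SC, 2.05, 1.90 and 1.77 in SH2, and 1.39, 1.67 and 1.47 in SH3. All 6 hairpin libraries were above all 3 SC libraries, and every SH2 library was above every SH3 library. The H4 share of histone RNA counts lay between 17.6% and 18.1% in SC, between 27.7% and 28.0% in SH2 and between 20.5% and 23.7% in SH3. The H3 share lay between 21.2% and 21.8% in SC, between 13.7% and 15.7% in SH2 and between 14.2% and 14.9% in SH3. H2A held between 18.6% and 21.1% of histone RNA counts in the 9 libraries, and SH2 lay below SC (19.5%, 18.6% and 19.1%, against 20.2%, 20.0% and 20.4%) while SH3 lay on both sides of it.

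In footprints, the balance of H4 and H3 overlapped between SH2 and SC. The H4 to H3 ratio of footprint counts was 1.99, 1.63 and 1.65 in SC, 2.23, 1.91 and 1.51 in SH2, and 2.47, 2.18 and 2.10 in SH3. SH2 overlapped SC on both sides, while SH3 lay above it. H2A held a smaller share of histone footprints in SH2, at 14.4%, 16.4% and 15.3% against 23.3%, 19.8% and 18.2% in SC, and SH3 overlapped SC at 18.9%, 17.3% and 16.5%. H1 held more, from between 19.6% and 19.8% in SC to between 21.9% and 24.3% in SH2 and between 22.7% and 26.3% in SH3.

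**Figure D2:**
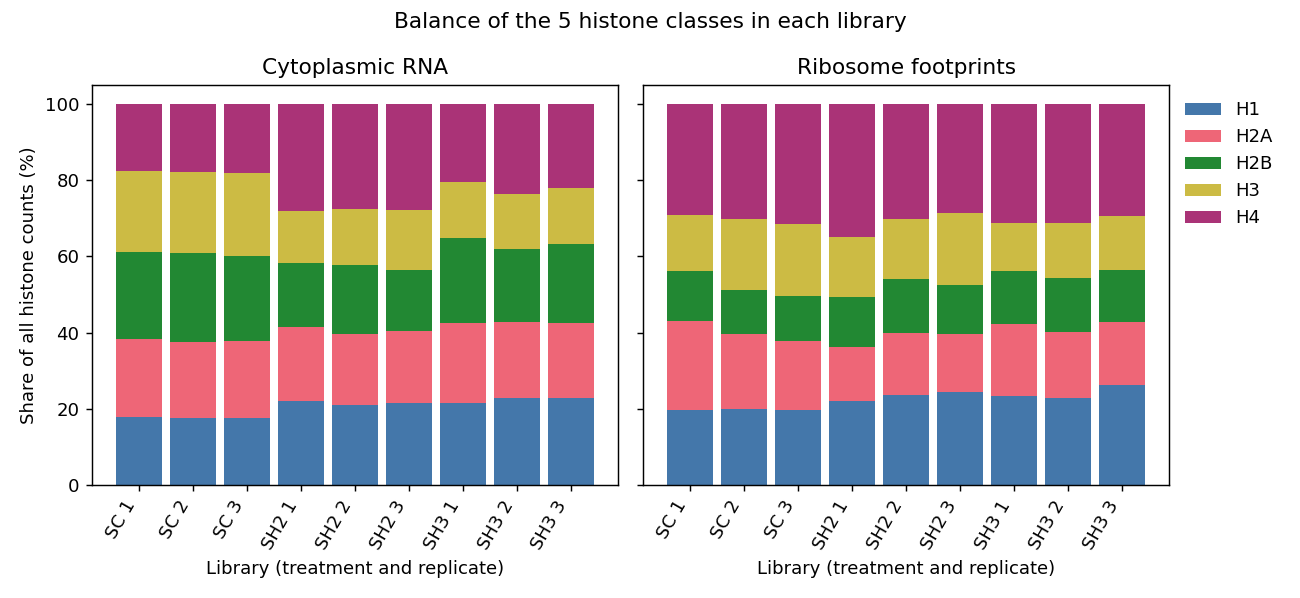
Each bar is 1 library, and the coloured segments give the share of all histone counts held by each class, in percent. In RNA the H4 segment is near 18% in SC and near 28% in SH2, while the H3 segment is smaller in all 6 hairpin libraries; in footprints the H4 segment overlaps between groups.

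Per length of gene, the abundant classes can be set beside each other. For this, counts were divided by the RefSeq gene span of genes with 1 curated transcript. In SC RNA, H4 had 4424 ± 995, H3 4266 ± 947, H2A 4040 ± 866 and H1 2312 ± 471 CPM per kilobase (SD, n = 3). Within each of the 3 SC RNA libraries the order was H4, H3, H2A and H1, with small steps between the first 3 next to the shift between libraries. In SC footprints, H4 had 9802 ± 2830, H2A 5398 ± 2113, H3 4399 ± 1056 and H1 3383 ± 988 CPM per kilobase. Within each library H4 was first and H1 last, and H2A was above H3 in 2 of 3. H2B is left out of this order because the genes with a usable span held only 41.1% of its RNA counts.

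Among the H1 genes, which encode the linker histones that bind DNA between nucleosomes, nearly all counts belonged to H1-2 and H1-4. H1-2 held 53.3% and H1-4 46.7% of H1 RNA counts in SC. H1-2 RNA was 726, 1055 and 1014 CPM in SC, 457, 476 and 593 CPM in SH2, and 536, 648 and 649 CPM in SH3, with both hairpins below SC. It fell by 0.87 on the log2 scale in SH2 (SE 0.15, edgeR adjusted p = 0.000146) and by 0.61 in SH3 (SE 0.14, adjusted p = 0.00293). H1-4 RNA fell by 0.52 in SH2 (SE 0.16, edgeR adjusted p = 0.0132), where SH2 overlapped SC, and by 0.72 in SH3 (adjusted p = 0.00206). The SH2 call for H1-4 was lost without SC replicate 2 (-0.42, adjusted p = 0.0510) or SC replicate 3 (-0.43, adjusted p = 0.0549), and without SH2 replicate 1 (-0.44, adjusted p = 0.0507) or SH2 replicate 2 (-0.47, adjusted p = 0.0541). H1-1 had at most 4 RNA counts in a library, H1-3 at most 3 and H1-5 had 0 in all 9.

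The H2A genes encode the partner of H2B in the nucleosome's dimers, and 9 of 11 tested fell in RNA in each hairpin, with median log2 changes of -1.60 in SH2 and -1.39 in SH3. H2AC11 RNA was 291, 454 and 473 CPM in SC, 68.3, 78.7 and 131 CPM in SH2, and 87.4, 83.4 and 99.7 CPM in SH3, with no overlap. It fell by 2.13 on the log2 scale in SH2 (SE 0.22, edgeR adjusted p = 2.31e-06) and by 2.17 in SH3 (SE 0.22, adjusted p = 4.05e-06). H2AC6, the most abundant of the class in SC RNA, was at 359, 479 and 513 CPM in SC, 376, 332 and 411 CPM in SH2, and 361, 394 and 373 CPM in SH3. The groups overlapped, and its changes of -0.27 and -0.26 did not pass (edgeR adjusted p = 0.0736 and 0.0952). Without SC replicate 1 both passed, at -0.43 (adjusted p = 0.00296) and -0.42 (adjusted p = 0.00476), and SH2 also passed without SH2 replicate 3 (-0.37, adjusted p = 0.0405) and with the replicate number as a block (-0.26, adjusted p = 0.0457). H2AC4 (-2.07 and -1.84) and H2AC13 (-1.60 and -1.33) fell in both, and H2AC20 fell by 0.51 in SH2, with -0.27 in SH3 (adjusted p = 0.145). H2AC20 passed in SH3 without SC replicate 1 (-0.42, adjusted p = 0.0187). Leaving H2AC6 out of the class sum gave a class change in RNA of -1.41 rather than -1.06 in SH2, and of -1.33 rather than -1.01 in SH3.

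All 13 H2B genes tested fell in RNA in both hairpins, with medians of -1.74 in SH2 and -1.50 in SH3. H2BC5 RNA, the most abundant, was 266, 348 and 339 CPM in SC, 89.1, 113 and 117 CPM in SH2, and 136, 130 and 135 CPM in SH3. It fell by 1.58 on the log2 scale in SH2 (SE 0.12, edgeR adjusted p = 2.35e-07) and by 1.25 in SH3 (SE 0.12, adjusted p = 3.22e-06), without overlap. The decrease of H2BC5 was larger in SH2 than in SH3 by 0.33 (adjusted p = 0.0460). H2BC14 fell by 2.72 and 2.71, one of the largest decreases, from 18.1, 40.8 and 36.5 CPM in SC to between 2.16 and 6.86 CPM in the hairpin libraries. H2BC12 and H2BC4, also abundant, fell less, by 0.92 and 0.72 in SH2 and by 0.64 and 0.71 in SH3. H2BC12, H2BC18, H2BC4 and H2BC5, the tested genes with more than 1 curated RefSeq transcript, had a median RNA change of -0.90 in SH2 and -0.67 in SH3, beside -1.47 and -1.45 for the 34 tested genes of all classes with 1 transcript. This grouping was made after the values had been seen.

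H2AC1 and H2BC1 are neighbours and the histone genes best known from testis, and they were the pair that separated the hairpins most. H2BC1 had 61, 67 and 74 RNA counts in SC, 20, 49 and 39 in SH2, and 7, 7 and 8 in SH3. H2BC1 fell by 1.02 in SH2 (SE 0.27, edgeR adjusted p = 0.00463) and fell by 3.19 in SH3 (SE 0.34, adjusted p = 5.43e-06), and it was higher in SH2 than in SH3 by 2.17 (SE 0.36, adjusted p = 0.000375). H2AC1 had 34, 35 and 29 RNA counts in SC, 15, 15 and 31 in SH2, and 9, 2 and 4 in SH3. H2AC1 fell by 2.70 in SH3 (SE 0.44, adjusted p = 0.000180), while -0.80 in SH2 did not pass (adjusted p = 0.0593), although it passed without SH2 replicate 3 (-1.22, adjusted p = 0.0186), with the replicate block (-0.81, adjusted p = 0.0442) and when only SC and SH2 were fitted (-0.82, adjusted p = 0.0463). The difference of H2AC1 between hairpins was 1.89 (adjusted p = 0.00581). Their RNA counts are the lowest among the tested histone genes, and without a stated strand setting, reads of overlapping antisense RNA could not be separated.

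The H3 genes, which encode the partner of H4 in the nucleosome's central tetramer, had the lowest class medians in RNA (-1.83 in SH2 and -1.94 in SH3), and 6 of 6 tested fell in each hairpin. H3C3 RNA was 486, 730 and 725 CPM in SC, 76.8, 104 and 164 CPM in SH2, and 128, 108 and 147 CPM in SH3. H3C3 fell by 2.49 on the log2 scale in SH2 (SE 0.24, edgeR adjusted p = 1.10e-06) and by 2.34 in SH3 (SE 0.23, adjusted p = 3.50e-06). Its hairpin libraries all lay far below the lowest SC library. H3C2, the most abundant H3 gene with 43.4% of the class's RNA counts in SC, was at 691, 1029 and 1045 CPM in SC, 364, 393 and 518 CPM in SH2, and 351, 420 and 416 CPM in SH3. It fell by 1.12 in SH2 (SE 0.16, edgeR adjusted p = 4.54e-05) and by 1.22 in SH3 (SE 0.16, adjusted p = 3.56e-05). H3C13, which lies on chromosome 1, fell by 2.66 and 2.48, and H3C10 by 0.87 and 0.94. Without H3C2 the class change in RNA was -1.92 rather than -1.52 in SH2, and -1.90 rather than -1.56 in SH3.

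The H4 genes nearly all encode the same protein. In RNA, 3 of 6 tested fell in SH2 and 4 of 6 in SH3, with class medians of -0.39 and -0.61. H4C2 RNA was 446, 663 and 690 CPM in SC, 513, 510 and 695 CPM in SH2, and 335, 474 and 421 CPM in SH3. In SH2 its change of -0.07 did not pass (SE 0.17, edgeR adjusted p = 0.752), and in SH3 it fell by 0.55 (SE 0.17, adjusted p = 0.0160), with overlap in both. The SH3 call for H4C2 was lost without SC replicate 2 (-0.47, adjusted p = 0.0510), SC replicate 3 (-0.44, adjusted p = 0.0718) or SH3 replicate 1 (-0.46, adjusted p = 0.0544). H4C2 was higher in SH2 than in SH3 by 0.48 (SE 0.17, adjusted p = 0.0399). H4C8 was at 373, 559 and 542 CPM in SC, 325, 404 and 480 CPM in SH2, and 252, 345 and 331 CPM in SH3, and it fell by 0.67 in SH3 (edgeR adjusted p = 0.00467). Its SH2 change of -0.29 (adjusted p = 0.159) passed only when SC replicate 1 was left out (-0.47, adjusted p = 0.0147) among the left-out libraries, and it passed with the replicate number as a block (-0.28, adjusted p = 0.0139). H4C3 fell by 0.49 in SH2 (adjusted p = 0.0130) and by 0.74 in SH3 (adjusted p = 0.00126). Its SH2 call was lost without SC replicate 2 (-0.39, adjusted p = 0.0526) or SC replicate 3 (-0.40, adjusted p = 0.0594).

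H4C1 departed from the other abundant H4 genes. Its RNA was 115, 194 and 197 CPM in SC, 45.9, 59.9 and 95.1 CPM in SH2, and 43.1, 57.9 and 53.7 CPM in SH3, with no overlap. H4C1 fell by 1.33 in SH2 (SE 0.24, edgeR adjusted p = 0.000270) and by 1.71 in SH3 (SE 0.24, adjusted p = 5.85e-05). H4C11 and H4C12, neighbours on chromosome 6, had between 436 and 782 and between 367 and 1016 RNA counts in a library, yet 0 footprint counts in all 9 footprint libraries, where a count of 0 allows up to 3. H4C5 was the reverse, with at most 2 RNA counts and between 3 and 25 footprint counts. These 3 were singled out after their values were seen, and how reads shared by H4 copies were assigned in each kind of library is not given in the sources used here.

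**Figure D3:**
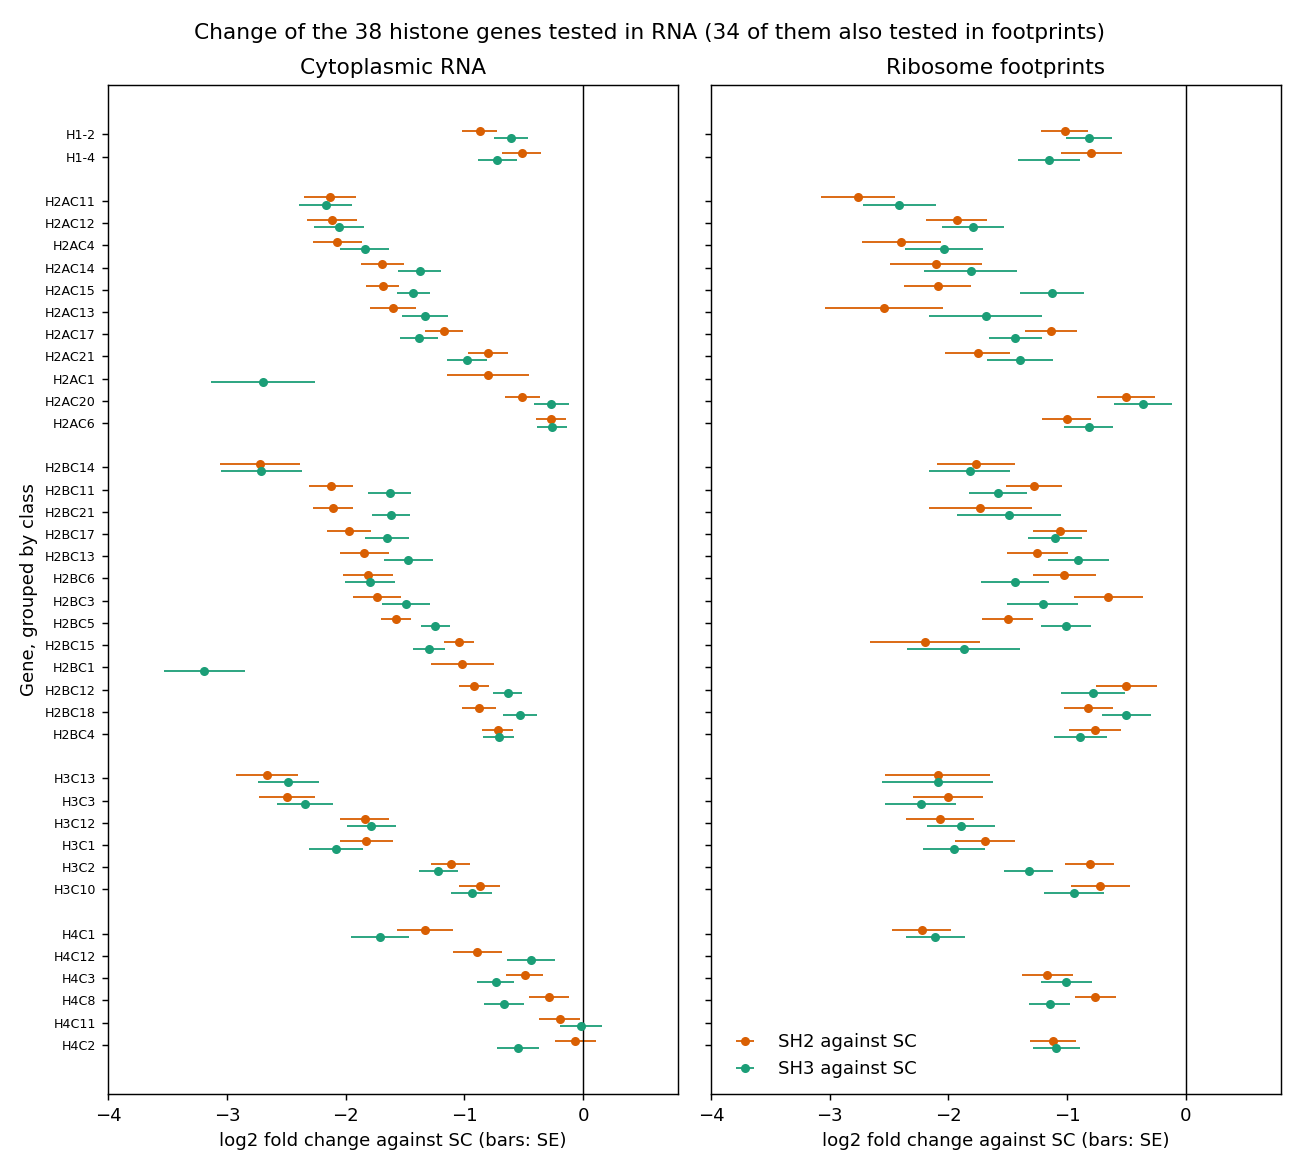
Points give the log2 fold change against SC of each histone gene tested in RNA, grouped by class and sorted by its SH2 value, with bars of 1 SE; RNA is on the left and footprints on the right, and genes without a footprint test have no point there. H4C2, H4C8 and H4C3 lie between -0.74 and -0.07 in RNA and between -1.16 and -0.76 in footprints, and H2AC1 and H2BC1 are the genes whose SH2 and SH3 points lie far apart.

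Genes with almost no RNA lay together. Of the 58 genes, 20 had at most 10 counts in every RNA library. In RefSeq gene order on chromosome 6, 14 of them were consecutive histone genes, from H4C4 to H2BC10, and 4 more were consecutive, from H2AC16 to H4C13. No other gene of the deposited table lay within these stretches. H1-1 and H4C9 were each near 0 between neighbours that were not. The stretch of 14 directly followed a stretch of 14 genes, H3C1 to H2BC6, each of which reached at least 1510 counts in some RNA library. Across the stretch from H4C4 the highest RNA count in any library was 6 and the highest footprint count was 25. The stretch was found by looking at the values, and no test was applied. The 5 histone genes on chromosome 1 had a median RNA change of -0.88 in SH2 and -0.98 in SH3, beside -1.33 and -1.39 for the 33 tested on chromosome 6. In footprints the order was the opposite, at -1.73 and -1.40 on chromosome 1 beside -1.21 and -1.26 for the 30 tested on chromosome 6.

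**Figure D4:**
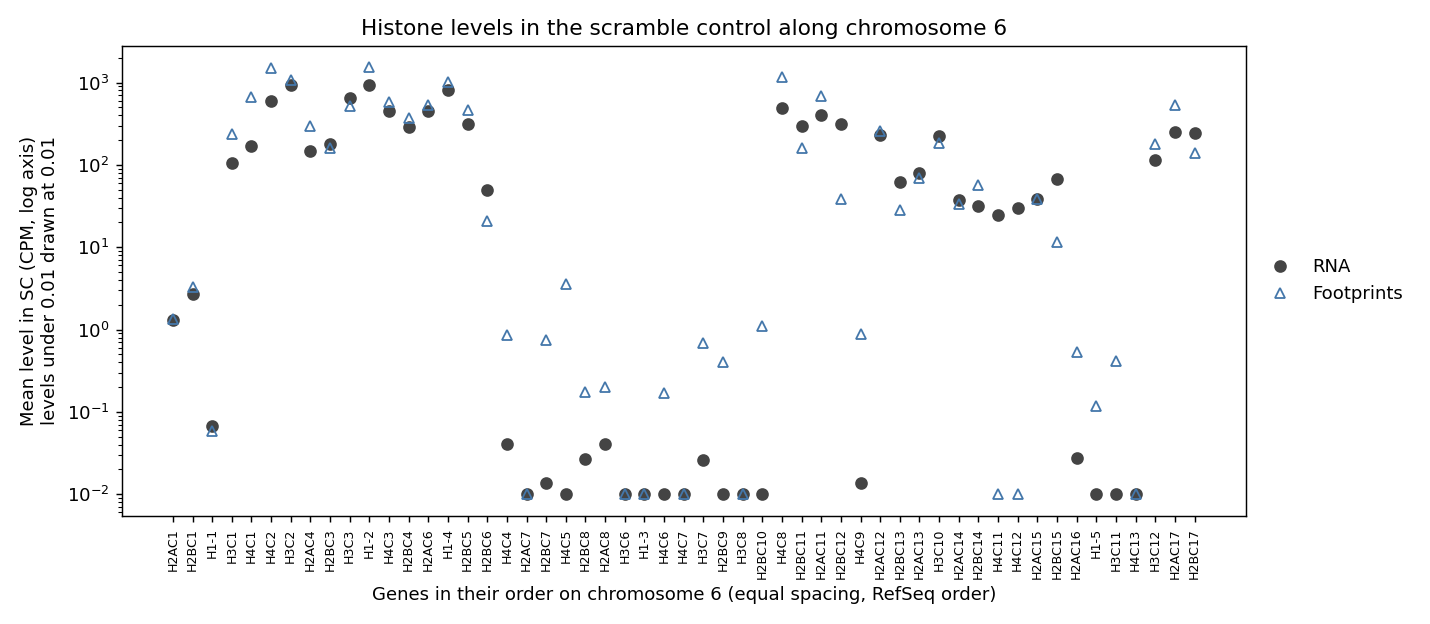
Histone genes stand in their RefSeq order on chromosome 6 at equal spacing, and the log axis gives the mean SC level in CPM of RNA (filled) and footprints (open), with levels under 0.01 drawn at 0.01. The 14 genes from H4C4 to H2BC10 are under 0.1 CPM in RNA, next to genes between 10 and 1000 CPM.

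Many H2A and H2B genes start back to back and share a promoter. The RefSeq spans of 10 pairs lay less than 500 bases apart, and 8 pairs had both genes tested in RNA. H2AC11 and H2BC11, whose upstream sequences are printed above, changed by -2.13 and -2.13 in SH2 and by -2.17 and -1.63 in SH3. H2AC20 and H2BC21 differed most in SH2, at -0.51 and -2.11. Over the 8 pairs the log2 RNA changes of the partners had a Pearson r of 0.48 and a Spearman rho of 0.64 in SH2, and 0.67 and 0.60 in SH3. In footprints, over 7 pairs, r was 0.17 in SH2 and 0.16 in SH3, with rho 0.18 and 0.29. These points share libraries and SC controls, and the values are descriptions.

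Ribosome footprints on histone mRNAs, the readout of their translation, were lower as well. Of 35 genes tested, 31 fell in SH2 and 0 rose, against 23.2% lower and 21% higher among all 10345 genes tested. In SH3, 32 fell and 0 rose, against 19% and 16.9% (edgeR's quasi-likelihood test). The medians were -1.25 and -1.32, beside -0.0042 and -0.014 for all genes, and 30 genes fell in both. H2BC18 passed in the SH2 comparison and not in the SH3 one, H2BC12 and H2BC3 the reverse, and H2AC20 and H4C5 passed in neither. The difference between SH2 and SH3 did not pass for any of these 5. Footprints of all histones stood at 44.4% of SC in SH2 and 42.3% in SH3, and RNA at 50.8% and 49.7%.

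H2A footprints summed to 3812, 1726 and 2504 CPM in SC, 759, 767 and 1115 CPM in SH2, and 952, 923 and 999 CPM in SH3. That is 32.8% and 35.7% of the SC mean, without overlap. H4 footprints were 4773, 2634 and 4324 CPM in SC, 1846, 1411 and 2086 CPM in SH2, and 1575, 1673 and 1779 CPM in SH3, or 45.5% and 42.9%, without overlap although H4 RNA in SH2 overlapped SC. H3 stood at 44.4% and 34.0%, H2B at 47.6% in each hairpin, and H1 at 52.8% and 52.1%, where H1 in SH2 overlapped SC. SC replicate 2 was the lowest SC library in footprints of all 5 classes.

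Single genes varied within each class. H2AC11 footprints were 989.7, 384 and 689 CPM in SC, 86.6, 68.3 and 151 CPM in SH2, and 122.9, 112 and 154 CPM in SH3. They fell by 2.76 on the log2 scale in SH2 (SE 0.31, edgeR adjusted p = 6.26e-06) and by 2.41 in SH3 (SE 0.31, adjusted p = 3.43e-05), the largest decreases among the histone footprints. H4C2 footprints were 1747, 996 and 1755 CPM in SC, 722, 541 and 814 CPM in SH2, and 686, 669 and 762 CPM in SH3. All hairpin libraries lay below all SC libraries, and the decreases of 1.12 (SE 0.20, edgeR adjusted p = 0.000304) and 1.09 (SE 0.20, adjusted p = 0.000551) stood beside RNA changes of -0.07 and -0.55. H4C1 footprints fell by 2.22 and 2.11. H2AC6 footprints fell by 1.00 (adjusted p = 0.00109) and 0.82 (adjusted p = 0.00620), although its RNA change did not pass. H1-2 footprints fell by 1.02 and 0.81, and H3C3 footprints by 2.00 and 2.23.

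Some footprint calls depended on single libraries or on the fit. H2BC12 passed in SH3 at -0.78 (edgeR adjusted p = 0.0338), and this was lost without SC replicate 1 (-0.31, adjusted p = 0.285), SH3 replicate 1 (-0.71, adjusted p = 0.0968) or SH3 replicate 2 (-0.63, adjusted p = 0.153), and when only SC and SH3 were fitted (-0.77, adjusted p = 0.0601). In SH2, H2BC12 at -0.50 passed only without SC replicate 2 (-0.67, adjusted p = 0.0312) among the left-out libraries. H2AC13 fell by 1.68 in SH3 (adjusted p = 0.0118), which was lost without SC replicate 1 (-0.76, adjusted p = 0.0856) or SH3 replicate 2 (-1.47, adjusted p = 0.0690), and in DESeq2 (-1.60, adjusted p = 0.0670), and fell by 2.54 in SH2, which passed at -1.63 without SC replicate 1. H1-4 footprints fell by 0.80 in SH2 (adjusted p = 0.0197), which was lost without SC replicate 1 (-0.45, adjusted p = 0.115), SH2 replicate 1 (-0.68, adjusted p = 0.0882) or SH2 replicate 2 (-0.67, adjusted p = 0.0860), and in DESeq2 (-0.78, adjusted p = 0.0852). H3C10 fell by 0.72 in SH2 (adjusted p = 0.0263), which was lost without SC replicate 1 (-0.52, adjusted p = 0.0946), SC replicate 3 (-0.61, adjusted p = 0.101), SH2 replicate 1 (-0.62, adjusted p = 0.100) or SH2 replicate 2 (-0.57, adjusted p = 0.117). H2BC4 fell by 0.76 in SH2 (adjusted p = 0.0103), which was lost without SC replicate 1 (-0.47, adjusted p = 0.0573) or SH2 replicate 2 (-0.66, adjusted p = 0.0520). H2AC20 at -0.50 in SH2 passed without SC replicate 2 (-0.71, adjusted p = 0.0149) or SH2 replicate 3 (-0.78, adjusted p = 0.0265), and with the replicate number as a block (-0.50, adjusted p = 0.0199).

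Footprints per RNA, the translational efficiency, were compared by the difference between the footprint and the RNA change in a model over all 18 libraries. Of 44 histone genes tested, 1 passed in SH2 and 0 in SH3, against 2.46% lower and 1.44% higher in SH2 and 0.311% lower and 0.375% higher in SH3 among all 12531 genes tested (edgeR's quasi-likelihood test). At an unadjusted p under 0.05 the counts were 10 and 0 of the 44 histone genes, beside 2248 and 1574 of the 12531 genes. The gene was H4C2, lower in SH2 by 1.07 on the log2 scale (SE 0.29, edgeR adjusted p = 0.0419), and its SH3 value was -0.53 (SE 0.29, adjusted p = 0.471). The difference between these values was not significant (adjusted p = 0.488). The SH2 call was lost on leaving out any one of SC replicate 1 (-0.75, adjusted p = 0.144), SC replicate 3 (-1.05, adjusted p = 0.114) or SH2 replicates 1, 2 and 3 (adjusted p = 0.0756, 0.0914 and 0.135, with values down to -1.17). It was also lost with a block joining the RNA and footprint library of each treatment and replicate number (-1.05, adjusted p = 0.0816). Without SC replicate 1, 5 histone genes passed in SH2, among them H2BC12, which was higher (1.02, adjusted p = 0.00822). Without SC replicate 2 the count was also 5, but the calls gained there included lower ones. These were H4C1 (-1.29, adjusted p = 0.0427), H4C3 (-1.05, adjusted p = 0.0193) and H2AC6 (-0.97, adjusted p = 0.0398). The share of all genes passing in these fits was not counted. Over the 34 genes also tested in both RNA and footprints, the median change in efficiency was 0.0020 in SH2 and -0.090 in SH3. Over all genes tested it was -0.019 and -0.044. In the H4 class, 4 of 4 such genes had negative values in each hairpin (medians -0.80 and -0.43), and in H2B 10 of 12 had positive values in SH2 (median 0.47) and 9 of 12 in SH3 (median 0.17). In H2A, 8 of 10 were negative in each (medians -0.44 and -0.22). The share of negative values among all genes was not counted.

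The classes also differed in footprints per RNA when set beside each other at the same replicate number, which cancels what the classes share. Each ratio joins an RNA and a footprint library by number. Over the 9 such pairs, deviations from group means correlated between -0.49 and 0.50. In SC, the log2 ratio of H4 footprint CPM to H4 RNA CPM was 1.87, 0.39 and 1.12, and that of H2B was 0.33, -1.38 and -0.60. The ratios spread by more than a log2 unit, yet H4 was first and H2B last at each number. No length entered these ratios, and genes with a usable span held only 41.1% of H2B RNA counts in SC. H4 RNA includes H4C11 and H4C12, which had 0 footprint counts. Whether the gaps between classes are gaps in translation was not tested. H4 exceeded H2B by 1.54, 1.77 and 1.72 in SC, by 0.69, 0.51 and 0.34 in SH2, and by 1.31, 0.83 and 1.00 in SH3, so each hairpin lay below SC without overlap. H4 exceeded H3 by 1.27, 0.97 and 0.99 in SC, by 0.12, 0.0071 and -0.23 in SH2, and by 0.83, 0.39 and 0.51 in SH3, again without overlap. H2A exceeded H2B by 1.01, 0.99 and 0.76 in SC, by -0.071, 0.20 and -0.014 in SH2, and by 0.55, 0.23 and 0.32 in SH3. H1 against H2B, H3 and H4 also lay apart from SC in both hairpins. Other pairs of classes did overlap SC. These were H4 against H2A and H2B against H3 in both hairpins, and H2A against H3 and H1 against H2A in SH3. For the ratio of any single class, both hairpin groups overlapped SC.

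**Figure D5:**
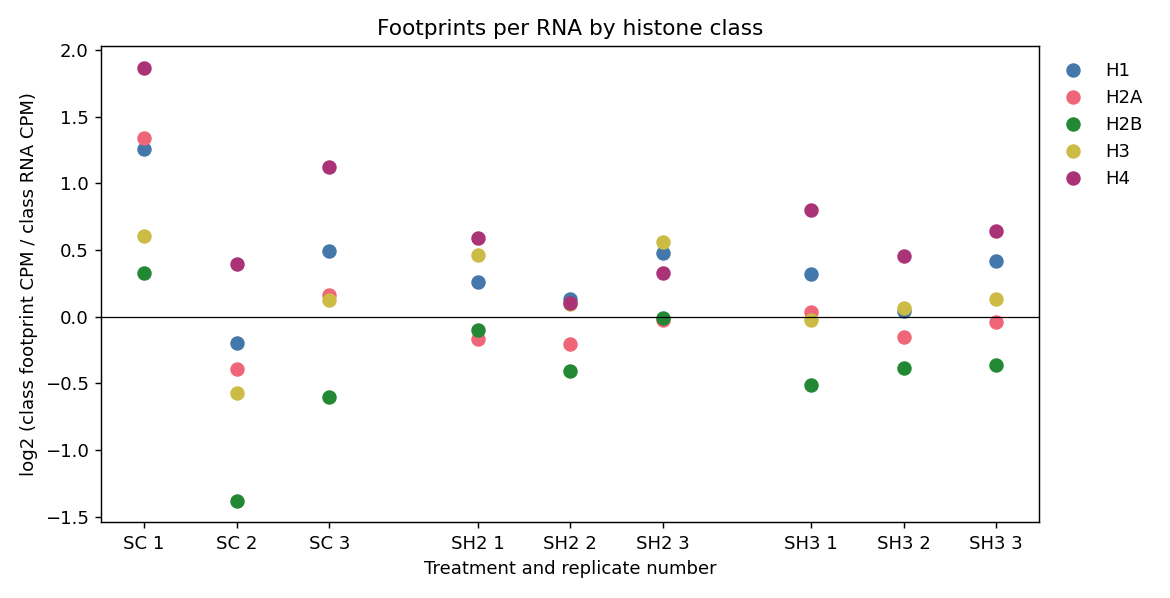
Points give the log2 ratio of summed footprint CPM to summed RNA CPM of each histone class in each replicate number of SC, SH2 and SH3. In SC the 5 classes keep H4 highest and H2B lowest while all of them shift between replicates; in SH2 the gap between H4 and H2B is between 0.34 and 0.69, against 1.54 to 1.77 in SC.

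Differences between SH2 and SH3 were few in the main fit, and their number depended on the fit. In RNA, 3 of 38 genes were higher in SH2 and 3 lower, against 18.9% and 20.4% of all genes tested. H2AC1, H2BC1 and H4C2 were higher in SH2, and H2BC11 (-0.50, edgeR adjusted p = 0.0408), H2BC21 (-0.49, adjusted p = 0.0276) and H2BC5 were lower. The count of 6 became 3 without SH2 replicate 2, 3 without SH3 replicate 1 and 2 without SH3 replicate 3. It rose to 14 with the replicate number as a block. The shares of all genes called under these other fits were not counted. In footprints 1 gene of 35 was lower in SH2 and 0 higher, against 11.6% and 12.1%. It was H2AC15 (-0.96, SE 0.31, adjusted p = 0.0341), and the count was 2 without SH2 replicate 2 and 7 without the filter on low counts. In translational efficiency 0 genes passed by edgeR in either direction, against 0.016% lower and 0% higher, with 3 at an unadjusted p under 0.05.

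Of 17 factors that act on histone mRNA, 7 rose and 6 fell in RNA in SH2, and 6 rose and 4 fell in SH3. Both are near the shares among all genes tested, 31.1% higher and 30.4% lower in SH2 and 27.8% and 25.2% in SH3. SLBP RNA was 91.4, 90.7 and 94.1 CPM in SC, 92.3, 80.1 and 95.7 CPM in SH2, and 66.6, 69.2 and 71.6 CPM in SH3. SLBP fell by 0.41 in SH3 (SE 0.09, edgeR adjusted p = 0.00189), where it lay below SC in every library, while -0.04 in SH2 did not pass (adjusted p = 0.700). CASP8AP2, a scaffold for histone mRNA processing, fell by 0.95 and 0.86, and ERI1, a nuclease that trims and degrades histone mRNA, by 1.29 and 0.64. NPAT fell by 0.65 in SH2 (edgeR adjusted p = 0.000157), and -0.20 in SH3 did not pass (adjusted p = 0.127). HINFP, which binds H4 promoters, rose by 0.36 in SH2 (adjusted p = 0.00612) and by 0.81 in SH3 (adjusted p = 1.80e-05). The processing nuclease MBLAC1 rose by 0.76 and 0.81, at only 19 to 45 RNA counts in a library. MIF4GD, which links SLBP to translation initiation, rose by 0.74 and 0.54.

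Of 10 histone chaperones and import factors, 6 fell in RNA in SH2 and 2 in SH3, and 0 rose, beside 30.4% and 25.2% of all genes lower. The 2 in both were CHAF1B, a subunit of the chromatin assembly factor (-1.71 and -1.24), and the H3 and H4 chaperone ASF1B (-1.42 and -1.56). Of the 9 tested genes listed as replacement histones, 5 fell and 1 rose in SH2, and 4 fell and 1 rose in SH3, beside the same shares. Their medians were -0.42 and -0.26. H2AX, the variant phosphorylated at DNA breaks, fell by 1.09 and 1.44, and H2AZ1 by 1.11 and 0.66.

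Genes listed for DNA replication and entry into S phase were lower as well. Of 36 listed, 34 fell in RNA in SH2 (median -1.06) and 26 in SH3 (median -0.65), and 0 rose. Among all genes tested in RNA, 30.4% and 25.2% were lower, and 31.1% and 27.8% higher. In footprints 32 of 35 fell in SH2 and 23 in SH3, beside 23.2% and 19% of all genes lower. The cyclin CCNE2 fell by 2.56 and 2.23, and RRM2, a subunit of ribonucleotide reductase, by 2.25 and 2.26. Their part in the histone result was not tested, and in bulk lysates fewer cells in S phase and less histone RNA per cell cannot be told apart. The authors' deposited comparisons were read at adjusted p under 0.05. Of histone genes with an adjusted p there, 33 of 40 were lower in SH2 RNA and 35 of 38 in SH3 RNA. In footprints 30 of 46 and 31 of 43 were lower, and 0 were higher in either kind of library. The share of all genes lower in those comparisons was not counted, so these counts stand without a background.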

How the data were processed

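Cytoplasmic RNA and ribosome footprints were measured in 18 libraries of MDA-MB-231 cells. The authors deposited 1 table of raw read counts per gene. Its normalized signal columns are DESeq2-normalized counts, per the file headers, and its log2 fold changes and p-values are the authors' own comparisons, per the file headers. The columns named RD hold the same values for both hairpins and were not used. Bowtie 1.2.2 and DESeq2 are named, per the submitters' processing notes. Their roles, the genome build, the annotation and the handling of reads with several matches are not given in the sources used here. Groups came from the treatment labels.

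Counts were tested with edgeR 4.0.16 (TMM scaling, filterByExpr, quasi-likelihood F test, 1 fit over all 9 libraries of a kind, Benjamini-Hochberg adjustment over all genes tested) in R 4.3.3. Translational efficiency was an interaction contrast over the 18 libraries. Fold changes come from the fit, levels are TMM-scaled CPM, and class values sum the genes of a class. The scripts were tested on simulated data. Deviations from group means of same-numbered SC and SH2 libraries correlated in every pair (0.295 to 0.358 in RNA, 0.249 to 0.297 in footprints), so for SH2 against SC the number was taken as a pairing and values with a replicate block stand beside the calls it changed. Pairs with SH3 did not all correlate above 0.1. Alternatives were DESeq2 1.42.0, other scaling, no filter, only the groups compared, a replicate block, class sums without the most abundant gene, and leaving out each library. For translational efficiency the block instead joined the RNA and footprint library of each treatment and replicate number.

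The histone genes, gene lists and tests were chosen with earlier results of these data known. Genes named are the 3 most abundant of each class, all H1 genes, up to 4 called higher and 4 lower with the largest change per measure and hairpin, genes called in opposite directions (none), FBL, SLBP, NPAT, CASP8AP2, HINFP and, per list, the 2 with the largest mean change each way among those called in both hairpins. Others were named after their values were seen. Gene spans, gene order and promoters were taken from RefSeq.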

Additional observations from a re-analysis of the deposited data

How the results depend on the processing

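Every alternative kept the direction of the histone counts against SC in RNA and footprints. Shares of all genes called were counted in the main fit only, so counts under the alternatives stand without a background. Calls lower in RNA numbered 31 to 36 in SH2 and 33 to 37 in SH3, and in footprints 28 to 34 and 29 to 34. Class sums moved beyond 1 SD only without the most abundant gene: H2A RNA to -1.41 in SH2 and -1.33 in SH3, H3 RNA to -1.92 and -1.90, and H3 footprints to -1.63 in SH2, and the cause was not tested. Of SH2 against SH3 in RNA, 6 genes passed, 10 when only the groups compared were fitted, and 2 to 6 with 1 library left out. In footprints 1 passed, 7 without the filter on low counts, 5 with only the groups compared, and 1 to 2 with 1 library left out. For translational efficiency in SH2, 1 passed, 5 without the filter, 0 with only the groups compared, and 0 to 5 with 1 library left out: 5 without SC replicate 1 and 5 without SC replicate 2. With the replicate number as a block, SH2 against SH3 gave 14 genes in RNA and 2 in footprints. With a block joining the RNA and footprint library of each treatment and number, translational efficiency in SH2 gave 0. For SH2 against SC, whose numbers pair the libraries by their correlation, the replicate block gave 36 calls in RNA and 33 in footprints. Among the histone genes chosen by the naming rule, it changed no call for SH2 other than those given in the text. Over the same-numbered pairs with SH3, correlations lay between -0.083 and 0.435 in RNA and between -0.117 and 0.314 in footprints. In RNA, numbers 1 and 3 correlated between 0.229 and 0.435, and number 2 at -0.083 and 0.038. In footprints, number 3 stood at 0.258 and 0.314, and numbers 1 and 2 at 0.016 or less. Pairs of unlike number reached 0.156 in RNA and 0.239 in footprints, so the number pairs the SH3 libraries only in part. In SH3 the block gave 36 calls in RNA and 33 in footprints, with H2AC20 RNA gained (-0.26, adjusted p = 0.0167). For single genes, 33 of the alternative values lost a call and 24 gained one, and 0 reversed. Footprint depth limits calls for genes of a few counts per library.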
